A study of Medicago truncatula with 16 samples.

Results

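A set of 150 genes of *Medicago truncatula* A17 was described whose transcript levels were higher after polyethylene glycol (PEG) treatment in radicles at both stages sampled, and not in cotyledons of seeds at those stages. The genes were chosen by measured values. Levels were expressed as CPM, each count as a share of the nuclear total of its library brought to a common sum, and a PEG difference was taken as the change in log2 of the group mean CPM plus 1. A gene was kept when this difference was at least 1 in radicles at both stages and under 0.5 in cotyledons at both stages. Of 44316 nuclear gene identifiers, 191 met these conditions, and they were ranked by the smaller radicle difference minus the larger cotyledon difference. The 150 highest were taken.

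The study sampled germinating seeds of the A17 genotype whose radicle had reached 1 mm or 5 mm, and it sequenced radicles and cotyledons separately. R1P and R5P are radicles, and C1P and C5P cotyledons, of seeds with radicles of 1 mm and 5 mm that were kept for 3 days in a PEG8000 solution at -1.7 MPa, at 10 °C in the dark. R1, R5, C1 and C5 are the same tissues and stages without PEG. Each of the 8 groups had 2 biological replicates, 16 libraries in all. Cold, darkness and the 3 days of incubation came only together with PEG, and their parts cannot be told apart. The sources speak of desiccated radicles and also of freshly harvested seeds, and they give both 50 and about 100 seeds a sample, so neither the state of the tissue nor the number of pooled seeds is settled.

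PEG is an osmoticum that draws water from the seed without entering its cells. Seeds lose desiccation tolerance as the radicle grows out, and osmotic treatment can bring it back in the radicle during a short window, with a return of transcripts typical of seed maturation. Cotyledons of legumes are storage organs that hold protein, oil and starch reserves, and they keep their tolerance for longer than radicles. Abscisic acid (ABA), the hormone of seed maturation and of water deficit, is made and broken down in both organs. A gene can meet the conditions above in several ways: it may have hardly any transcript in cotyledons, it may be lowered there by PEG, or it may stand in cotyledons at a level that PEG does not raise.

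The libraries held 22012976 to 23257652 estimated counts. Salmon divides a read among transcripts that it fits equally, so 15.3 to 21.6% of values in a library were not whole, and 44 of the 150 genes had such values in 8 libraries or more. The second C1P replicate stood apart, with 4.09% of its counts on organelle genes, against 0.0503 to 0.934% in the other 15 libraries. The tissue labels were checked against markers. Chloroplast-encoded transcripts summed to 460 to 2652 CPM in radicle libraries and 3125 to 40601 CPM in cotyledon libraries, and 6 nuclear photosynthesis genes to 20.1 to 109 CPM in radicles and 112 to 489 CPM in cotyledons. The single gene annotated as a Casparian strip protein, meant as the radicle marker, did not separate the tissues and was lower with PEG in both. It had 0.348 to 0.863 CPM in R1P against 8.00 to 10.5 CPM in R1, 8.28 to 8.44 CPM in R5P against 12.4 to 17.3 CPM in R5, 1.18 to 2.27 CPM in C1P against 11.2 to 12.4 CPM in C1, and 4.09 to 5.49 CPM in C5P against 37.8 to 69.4 CPM in C5. Transcripts of 7 oleosins, which coat seed oil bodies, reached 3163 to 7434 CPM in PEG-treated radicles and 7.22 to 19.5 CPM in untreated radicles. They also reached 1277 to 3054 CPM in PEG-treated cotyledons, against 15.7 to 55.2 CPM in untreated cotyledons. The 6 nuclear photosynthesis genes were likewise higher with PEG in both tissues, at 49.1 to 109 CPM in treated radicles against 20.1 to 33.3 CPM in untreated ones, and at 266 to 489 CPM in treated cotyledons against 112 to 153 CPM in untreated ones. Chloroplast-encoded transcripts were higher with PEG in 5 mm radicles and in cotyledons of both stages. In 1 mm radicles they overlapped, at 1075 to 1174 CPM in R1P against 460 to 1411 CPM in R1. The part of these shifts in the results below was not tested. RNA was extracted from whole organs, so that fewer cells of a type and less RNA per cell cannot be told apart.

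Together the 150 genes carried 7222 and 7401 CPM in the R1P libraries, against 2186 and 2029 CPM in R1. In 5 mm radicles they carried 12033 and 12176 CPM in R5P, against 2514 and 2523 CPM in R5. The cotyledon sums ran the other way, with 6158 and 5937 CPM in C1P against 7615 and 7468 CPM in C1, and 5473 and 5789 CPM in C5P against 7812 and 6374 CPM in C5. A single gene, MtrunA17_Chr2g0295141, made up much of the R5P sum, and without it the 150 genes carried 8317 and 8271 CPM in R5P against 2237 and 2198 CPM in R5. These sums restate the choice of the genes and carry no test.

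The PEG difference on the scale used for the choice had a median of 1.44 in 1 mm radicles, with a range of 1.00 to 3.85, and of 1.61 in 5 mm radicles, with a range of 1.01 to 4.83. The medians in cotyledons were -0.03 at the 1 mm stage and 0.00 at the 5 mm stage. In radicles the difference was larger at 5 mm for 97 genes and larger at 1 mm for 53 genes. By more than 1 on this log2 scale, it was larger at 5 mm for 19 genes and larger at 1 mm for 9 genes. At the lower edge of the ranking, the last gene taken was MtrunA17_Chr5g0399391, with a score of 0.834, and the next to last MtrunA17_Chr5g0405581, a thaumatin family protein, with 0.836. The genes just outside were MtrunA17_Chr3g0103411, also at 0.834, and MtrunA17_Chr4g0034641, annotated as an arabinosyltransferase, at 0.825.

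How far the cotyledon levels stayed level depended on the scaling. Scaled to library totals, as in the choice of the genes, edgeR's fitted C1P to C1 difference of the 150 genes had a median of -0.09 on the log2 scale, and 13 genes were at 1 or more. With TMM, which sets libraries level on the bulk of their genes, the median was 0.49, with 74 genes at 0.5 or more and 30 at 1 or more. The median over all 25524 genes tested was -0.64 on library totals and -0.04 with TMM. For C5P against C5 the medians of the 150 genes were 0.00 on library totals and 0.15 with TMM, and 32 genes were at 0.5 or more with TMM. In radicles, every one of the 150 genes was above 1 under both scalings, with medians of 1.91 and 1.94 at 1 mm and 5 mm on library totals, and of 2.27 and 2.18 with TMM. On library totals too, 19 genes were at 0.5 or more in the fitted C1P to C1 difference and 17 in that of C5P to C5. On the scale of the choice, which adds 1 CPM, no gene exceeded 0.47 in either cotyledon comparison. The fit used counts without that addition, so its differences can be large at very low counts. MtrunA17_Chr1g0186061 had a C1P to C1 difference of 3.54 with TMM, on 1 count in each C1P library and none in C1. On the scale of the choice it was 0.06. Such fitted values do not show a rise in cotyledons, and how many genes they concern was not tested. By fitted values, the description of the genes as raised in radicles only held for fewer with TMM than on library totals.

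**Figure D1:**
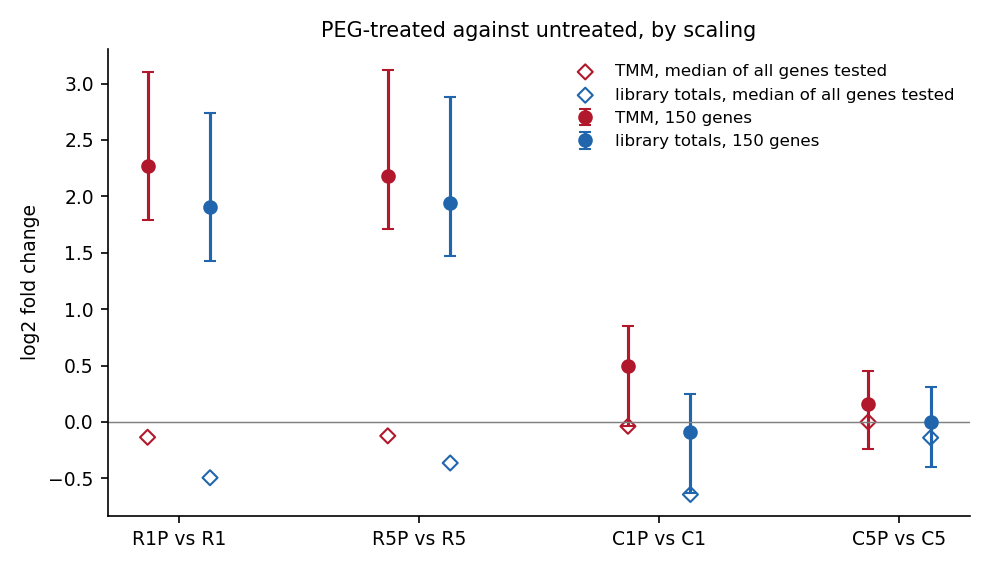
Log2 fold change of PEG-treated against untreated samples in the 4 tissue and stage pairs, fitted with edgeR under TMM or library totals. Filled circles are medians of the 150 genes, bars their lower to upper quartile, and open diamonds the median of all 25524 genes tested. The radicle medians lie between 1.91 and 2.27 under either scaling, whereas the C1P against C1 median is 0.49 with TMM and -0.09 on library totals.

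The choice was also made on 1 replicate of each group and read in the other. Of 150 genes chosen on the first replicates, 148 were higher with PEG in both radicle comparisons of the second replicates, and 60 met all 4 conditions there. Of 150 chosen on the second replicates, 145 were higher in both radicle comparisons of the first, and 61 met all 4 conditions. Among the 25406 nuclear genes tested, 198 (0.779%) met the conditions in the first replicates alone and 207 (0.815%) in the second. Over all nuclear genes tested, 23.9% were higher with PEG in both radicle comparisons of the first replicates and 25.6% in those of the second. These are not the 150 genes described here, of which 88 were among those chosen on the first replicates and 96 among those chosen on the second. The counts are therefore a description of the choice and no test of the 150. Membership at the thresholds varied with the library. Without the second C1P replicate, 134 of the 150 genes still met the conditions.

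The genes fell into 3 patterns in cotyledons. In 36 genes every cotyledon group had a mean under 1 CPM. In 4 genes the cotyledon level was lower with PEG by 1 or more, on the same scale as the choice, at both stages. The other 110 had a mean of 1 CPM or more in some cotyledon group and no such drop at both stages, though 8 of them were lower with PEG by 1 or more at 1 of the stages. Median levels of these 110 genes were 12.5 CPM in R1P against 3.28 CPM in R1, and 19.1 CPM in R5P against 5.35 CPM in R5. In cotyledons the same genes had medians of 13.0 CPM in C1P against 15.6 CPM in C1, and 14.99 CPM in C5P against 15.7 CPM in C5. CPM is not scaled for transcript length, so levels are compared between samples and not between genes.

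**Figure D2:**
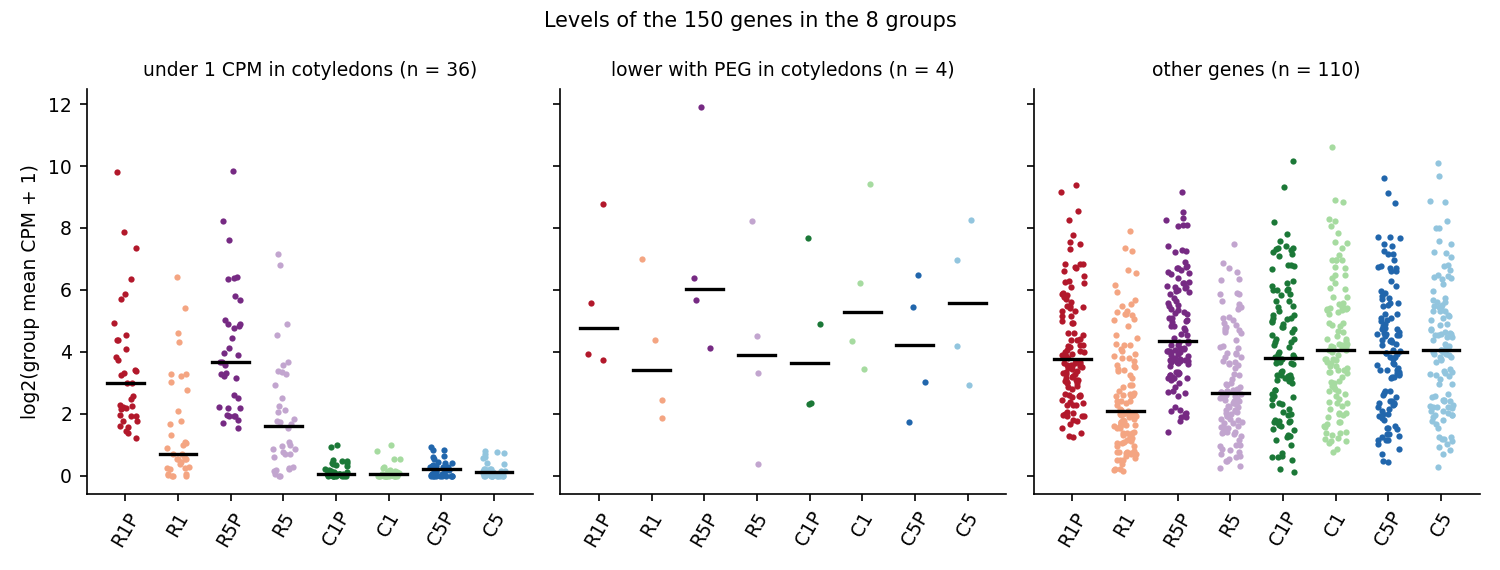
Group mean levels, as log2(CPM + 1), of the 150 genes in the 8 groups, split by their pattern in cotyledons. Each point is a gene and each bar the median. The 36 genes of the left panel lie under 1 CPM in all cotyledon groups, and the medians of the 110 other genes in R1P (12.5 CPM) and R5P (19.1 CPM) stand near those of cotyledons (13.0 to 15.7 CPM).

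The annotation tables used here hold text for 4749 genes, among them 87 of the 150, and 23 of those read only putative or hypothetical protein. By keywords in the annotation, 8 genes were transcription factors or regulators, 6 fell under RNA or ribosome, 5 under transport, and 4 each under cell wall, kinases and redox. Defence had 3 genes, lipids and sugars 2 each, and hormones, protein turnover and seed maturation 1 each. The keywords misplaced a few genes, such as an enoyl-[acyl-carrier-protein] reductase under transport, and the descriptions below follow the annotation itself. On the chromosomes named in the identifiers, the genes ran from 9 on chromosome 6 to 28 on chromosome 4. In 7 pairs, 2 of the genes lay within 5 places of each other in the order of identifiers.

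Of the 36 genes under 1 CPM in cotyledons, 26 had over 3 counts in some cotyledon library and 2 had none in any. MtrunA17_Chr1g0186061, the highest of the ranking, is not in the annotation tables used here. It had 15.1 and 16.6 CPM in R1P against 0.307 and 0.0430 CPM in R1, and 61.01 and 40.1 CPM in R5P against 0.786 and 0.827 CPM in R5. Cotyledon libraries held at most 0.0474 CPM, which is 1 count. Treated and untreated radicles did not overlap. Between stages, the gene was higher in R5P than in R1P by 1.53 ± 0.34 on the log2 scale (SE, edgeR adjusted p = 0.0082).

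Several genes of this pattern encode BURP domain proteins, a family specific to plants that includes cell wall proteins and the dehydration-responsive RD22 of *Arabidopsis*. All 4 BURP genes of the set had almost no cotyledon transcript. MtrunA17_Chr4g0034721 had 870 and 916 CPM in R1P against 91.3 and 78.5 CPM in R1, and 861 and 964 CPM in R5P against 137 and 147 CPM in R5. In each cotyledon library it had 3 counts or fewer. Its R5P to R1P difference was -0.11 ± 0.22 (log2, SE), which did not pass the test (edgeR adjusted p = 0.78).

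MtrunA17_Chr4g0034691 lies 3 places away. It had 145 and 181 CPM in R1P against 22.6 and 15.2 CPM in R1, and 223 and 168 CPM in R5P against 19.2 and 25.7 CPM in R5. No count was found in C5P or C5, so its R5P level was at least 1463-fold that of C5P, taking 3 counts in each library as the floor. Values of both genes were not whole in 8 libraries, so some of their reads were shared with similar transcripts.

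The other BURP genes are neighbours on chromosome 8. MtrunA17_Chr8g0355861 had 216 and 254 CPM in R1P against 39.5 and 43.4 CPM in R1, and 246 and 351 CPM in R5P against 105 and 119 CPM in R5. MtrunA17_Chr8g0355871, named here for its family after its values were seen, had 21.7 and 36.9 CPM in R1P against 3.90 and 2.67 CPM in R1, and 28.8 and 34.1 CPM in R5P against 9.43 and 9.09 CPM in R5. In untreated radicles both genes were higher at 5 mm than at 1 mm, by 1.41 ± 0.33 (edgeR adjusted p = 0.010) and 1.47 ± 0.33 (adjusted p = 0.010) on the log2 scale. With PEG, their stage differences were 0.20 ± 0.32 and -0.04 ± 0.30 and did not pass. The next gene along, MtrunA17_Chr8g0355881, a putative protein, went against them in stage, with 3.18 and 2.35 CPM in R5P against 10.3 and 14.1 CPM in R1P (log2 difference -2.27 ± 0.42, edgeR adjusted p = 0.0033).

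A further neighbouring pair of this pattern was MtrunA17_Chr7g0230401, a hypothetical protein, and MtrunA17_Chr7g0230391, not in the annotation tables used here. Their cotyledon libraries held at most 0.264 and 0.134 CPM. The first had 81.0 and 78.7 CPM in R1P against 29.1 and 17.7 CPM in R1, and 101 and 66.3 CPM in R5P against 32.0 and 25.7 CPM in R5. The second had 24.1 and 20.6 CPM in R1P against 8.27 and 9.37 CPM in R1, and 21.0 and 34.2 CPM in R5P against 11.5 and 11.6 CPM in R5. Treated and untreated radicles of both genes were apart at each stage, and their values were not whole in 8 libraries.

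Several genes of this pattern were far more abundant at one stage. MtrunA17_Chr2g0285801 had 89.2 and 70.6 CPM in R5P against 4.58 and 4.58 CPM in R1P, a log2 difference of 3.99 ± 0.41 (edgeR adjusted p = 3.3e-05), with 2.66 and 3.57 CPM in R5 against 1.36 and 0.817 CPM in R1. MtrunA17_Chr5g0406391, a putative protein, had 9.68 and 12.3 CPM in R5P against 58.7 and 57.0 CPM in R1P, a log2 difference of -2.54 ± 0.31 (edgeR adjusted p = 0.00027). The albumin I gene MtLegin5 (MtrunA17_Chr3g0111131) had 9.03 and 8.82 CPM in R1P against 0.351 and 0.516 CPM in R1, and 2.78 and 4.23 CPM in R5P against 0.306 and 0 CPM in R5. The R5P to R1P difference of MtLegin5 was -1.49 ± 0.64 on the log2 scale and did not pass (edgeR adjusted p = 0.13). Albumins of this family are small cysteine-rich seed proteins, and no cotyledon library held a count of it. Its R1P level was at least 65.1-fold that of C1P at the floor of 3 counts.

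MtMATE10 (MtrunA17_Chr6g0468511), of the multi antimicrobial extrusion family of membrane transporters, had 6.02 and 7.73 CPM in R1P against 0.0876 and 0 CPM in R1. It had 2.25 and 3.30 CPM in R5P and no count in R5, so that R5P was at least 21.2-fold higher. The dioxygenase gene MtrunA17_Chr1g0162321 had 52.3 and 49.0 CPM in R1P against 8.15 and 8.43 CPM in R1, and 49.1 and 61.02 CPM in R5P against 7.82 and 11.01 CPM in R5. Its cotyledon libraries held 0 to 1.46 CPM, and its values were not whole in 13 libraries. Transcription factors of this pattern, named here for their annotation after their values were seen, were of the B3 domain, GRAS and C3H families. The B3 gene MtrunA17_Chr7g0270401 had 8.25 and 8.95 CPM in R1P against 1.71 and 2.67 CPM in R1, and 3.36 and 6.01 CPM in R5P against 0.612 and 0.653 CPM in R5. B3 factors include regulators of seed maturation and of auxin response, and the annotation does not say to which group this gene belongs.

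In the 4 genes lowered in cotyledons, PEG-treated radicles and cotyledons changed in opposite directions, as the choice of the pattern requires. MtrunA17_Chr2g0295141, not in the annotation tables used here, had 400 and 474 CPM in R1P against 126 and 128 CPM in R1, and 3715 and 3905 CPM in R5P against 278 and 325 CPM in R5. In cotyledons it had 209 and 194 CPM in C1P against 685 and 674 CPM in C1, and 73.5 and 103 CPM in C5P against 350 and 265 CPM in C5. No treated library overlapped an untreated library of its tissue and stage. Its values were not whole in any of the 16 libraries, so its reads were shared with similar transcripts throughout.

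MtrunA17_Chr5g0402871, an alpha/beta hydrolase, had 12.7 and 11.8 CPM in R1P against 2.88 and 2.33 CPM in R1, and 14.5 and 18.1 CPM in R5P against 0.335 and 0.281 CPM in R5. In cotyledons it had 2.94 and 5.32 CPM in C1P against 21.3 and 17.1 CPM in C1, and 2.29 and 2.31 CPM in C5P against 7.39 and 5.96 CPM in C5. MtrunA17_Chr4g0020881 had 47.3 and 46.9 CPM in R1P against 18.6 and 21.4 CPM in R1, and 31.2 and 26.5 CPM in C1P against 76.6 and 70.4 CPM in C1. At 5 mm it had 80.1 and 85.8 CPM in R5P against 8.68 and 9.05 CPM in R5, and 42.6 and 42.9 CPM in C5P against 132 and 115 CPM in C5. The fourth, MtrunA17_Chr4g0068501, had 46.9 and 52.0 CPM in R5P against 22.5 and 20.8 CPM in R5, and 6.22 and 7.89 CPM in C5P against 24.4 and 9.61 CPM in C5. The last comparison is the closest, since the C5 replicates were far apart. With TMM, the C1P to C1 difference was -0.77 ± 0.17 for MtrunA17_Chr4g0020881 and -0.69 ± 0.45 for MtrunA17_Chr4g0068501 on the log2 scale. Both fall short of the drop of 1 that the pattern asked for on library totals.

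Among the other 110 genes, the single hormone gene was MtrunA17_Chr1g0164371, annotated as an (+)-abscisic acid 8'-hydroxylase, the enzyme that starts the main route of ABA breakdown. It had 14.1 and 13.1 CPM in R1P against 2.59 and 1.205 CPM in R1, and 11.5 and 11.02 CPM in R5P against 1.27 and 1.61 CPM in R5. Its cotyledon levels were 9.70 and 7.39 CPM in C1P against 11.6 and 13.3 CPM in C1, and 4.16 and 3.15 CPM in C5P against 5.54 and 4.43 CPM in C5. Untreated radicles lay under every other group. The gene was lower in R1 than in C1 by -2.59 ± 0.33 on the log2 scale (edgeR adjusted p = 1.8e-05), while R1P and C1P differed by 0.57 ± 0.30, which did not pass (adjusted p = 0.14). In cotyledons the 5 mm stage was lower, by -1.58 ± 0.32 with PEG (adjusted p = 0.0058) and by -1.23 ± 0.31 without it (adjusted p = 0.016).

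Genes annotated as enzymes of starch synthesis were noticed after their values were seen, as was a carrier whose annotation does not name starch. No test was made of them as a group. MtrunA17_Chr1g0189131 is an NDP-glucose-starch glucosyltransferase, the kind of enzyme that builds amylose in starch granules. It had 574 and 579 CPM in R1P against 150 and 157 CPM in R1, and 597 and 553 CPM in R5P against 74.04 and 83.01 CPM in R5. Its cotyledon levels were above those of radicles throughout, at 1111 and 1163 CPM in C1P against 1512 and 1614 CPM in C1, and at 788 and 775 CPM in C5P against 1237 and 936 CPM in C5.

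MtrunA17_Chr4g0035171 is a glucose-1-phosphate adenylyltransferase, which makes the ADP-glucose used for starch. It had 100 and 94.9 CPM in R1P against 25.8 and 37.1 CPM in R1, and 146 and 167 CPM in R5P against 53.6 and 59.8 CPM in R5. In cotyledons it had 289 and 295 CPM in C1P against 491 and 455 CPM in C1, and 560 and 551 CPM in C5P against 411 and 502 CPM in C5, so that the stages shifted in opposite directions. MtrunA17_Chr2g0332291, an ADP/ATP carrier of the bacterial type, belongs to the family that brings ATP into plastids. It had 59.8 and 58.6 CPM in R1P against 5.401 and 4.81 CPM in R1, and 41.8 and 50.8 CPM in R5P against 11.96 and 12.06 CPM in R5, while cotyledons held 30.5 and 21.3 CPM in C1P against 25.04 and 29.9 CPM in C1, and 42.5 and 44.6 CPM in C5P against 38.2 and 58.4 CPM in C5. Its values were not whole in any library.

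Untreated radicles were the low tissue for these 3 genes. On the log2 scale, R1 was below C1 by -3.23 ± 0.22 for the glucosyltransferase, by -3.80 ± 0.20 for the adenylyltransferase and by -2.31 ± 0.21 for the carrier (edgeR adjusted p = 5e-08, 8.1e-09 and 6.7e-07). R1P was below C1P by -1.09 ± 0.20 and -1.69 ± 0.18 for the enzymes and above it by 1.10 ± 0.19 for the carrier (edgeR adjusted p = 0.00052, 4.6e-06 and 4e-04). At 5 mm with PEG, the glucosyltransferase and the carrier differed between tissues by -0.33 ± 0.20 and 0.19 ± 0.19 and did not pass, whereas the adenylyltransferase was lower in R5P than in C5P by -1.72 ± 0.18 (edgeR adjusted p = 4.3e-06).

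**Figure D3:**
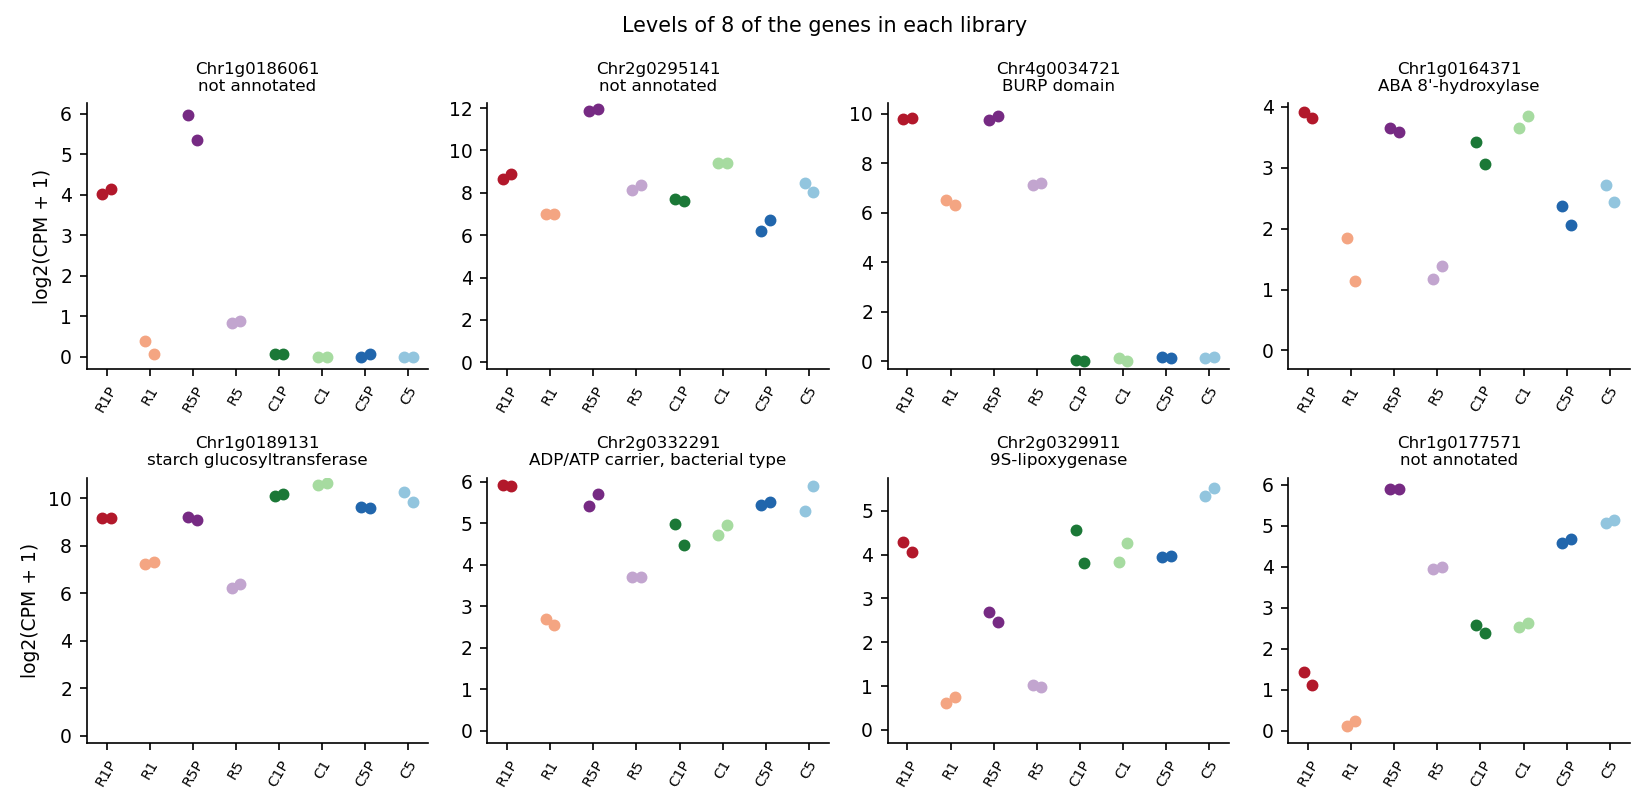
Levels of 8 of the genes, as log2(CPM + 1), in each of the 16 libraries, with the 2 replicates of a group side by side. The upper row shows the highest ranked gene, MtrunA17_Chr2g0295141, a BURP domain gene at 3 counts or fewer in each cotyledon library, and the ABA 8'-hydroxylase. The lower row shows a starch glucosyltransferase, an ADP/ATP carrier, a 9S-lipoxygenase and MtrunA17_Chr1g0177571, which was higher at 5 mm in every tissue and treatment.

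Lipid and defence genes were also among these 110. The 9S-lipoxygenase gene MtrunA17_Chr2g0329911, whose enzyme oxidises linoleate in the synthesis of oxylipins, had 18.4 and 15.6 CPM in R1P against 0.526 and 0.688 CPM in R1. At 5 mm it had 5.47 and 4.53 CPM in R5P against 1.05 and 0.957 CPM in R5. It was lower in R5P than in R1P by -1.91 ± 0.25 (log2, edgeR adjusted p = 0.00012). In cotyledons it had 22.6 and 13.02 CPM in C1P against 13.2 and 18.1 CPM in C1, which overlapped. At 5 mm it was lower with PEG, with 14.4 and 14.5 CPM in C5P against 39.4 and 44.6 CPM in C5.

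The lipid-transfer protein gene MtnsLTP20 (MtrunA17_Chr4g0012891) had 578 and 757 CPM in R1P against 256 and 218 CPM in R1, and 216 and 397 CPM in R5P against 87.4 and 102 CPM in R5. It was lower at 5 mm with and without PEG, by -1.27 ± 0.36 (edgeR adjusted p = 0.023) and -1.35 ± 0.37 (adjusted p = 0.020). With TMM its C1P to C1 difference was 1.07 ± 0.36 on the log2 scale, above the limit that the choice set on library totals. The enoyl-[acyl-carrier-protein] reductase gene MtrunA17_Chr3g0112501, of fatty acid synthesis, had 24.1 and 37.8 CPM in R5P against 5.51 and 4.37 CPM in R5, and 11.4 and 12.2 CPM in R1P against 2.46 and 4.04 CPM in R1.

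The thaumatin gene MtrunA17_Chr5g0405581, of a family of pathogenesis-related proteins, had 209 and 227 CPM in R1P against 68.4 and 72.1 CPM in R1. At 5 mm its difference was small, with 93.9 and 142 CPM in R5P against 60.1 and 56.2 CPM in R5. The chitinase gene MtrunA17_Chr8g0370831, whose enzyme degrades fungal walls, had 27.4 and 18.8 CPM in R1P against 3.11 and 2.92 CPM in R1, and 10.8 and 21.6 CPM in R5P against 3.36 and 1.57 CPM in R5. The chitinase was higher in R1P than in C1P by 1.66 ± 0.43 (log2, edgeR adjusted p = 0.0058), while R1 and C1 differed by -0.80 ± 0.44 and did not pass (adjusted p = 0.14).

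Regulators among the 110 included the AP2-EREBP transcription factor MtrunA17_Chr8g0343851, of the family that holds the ethylene-response and drought-response factors. It had 44.6 and 41.9 CPM in R1P against 10.2 and 11.7 CPM in R1, and 37.0 and 25.5 CPM in R5P against 5.50 and 5.83 CPM in R5. Cotyledons were higher throughout, at 174 and 154 CPM in C1P against 335 and 289 CPM in C1, and at 167 and 119 CPM in C5P against 129 and 160.3 CPM in C5. R1P stood below C1P by -2.03 ± 0.21 and R1 below C1 by -4.71 ± 0.23 (log2, edgeR adjusted p = 2.8e-06 and 5.5e-09).

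The calcium-dependent protein kinase gene MtrunA17_Chr1g0190131 was highest in treated radicles. It had 54.4 and 48.5 CPM in R1P against 13.6 and 13.3 CPM in R1, and 60.8 and 65.3 CPM in R5P against 12.1 and 10.1 CPM in R5, while no cotyledon library exceeded 13.7 CPM. With TMM its C1P to C1 difference was 1.00 ± 0.26 on the log2 scale, above the limit that the choice set on library totals. Without PEG it was higher in R1 than in C1 by 1.21 ± 0.26 (edgeR adjusted p = 0.0013). R5 and C5 differed by -0.08 ± 0.25, which did not pass (adjusted p = 0.82). The receptor-like kinase genes MtrunA17_Chr7g0229941 and MtrunA17_Chr4g0031561 had 12.6 to 17.2 CPM and 1.93 to 7.42 CPM in treated radicles, against 4.61 to 4.99 CPM and 0.311 to 2.91 CPM in untreated ones. MtrunA17_Chr4g0031561 was lower at 5 mm than at 1 mm, by -1.54 ± 0.35 with PEG (log2, edgeR adjusted p = 0.0071), and in cotyledons it had 5.67 and 3.97 CPM in C1P against 12.1 and 10.7 CPM in C1. Further annotated genes, named after their values were seen, were the VQ motif protein MtrunA17_Chr7g0255371 and the senescence regulator S40 gene MtrunA17_Chr2g0288341. VQ proteins bind WRKY transcription factors, and this gene had 324 and 279 CPM in R1P against 102 and 96.8 CPM in R1. The S40 gene had 59.6 and 55.2 CPM in R1P against 19.0 and 16.6 CPM in R1, and at most 5.26 CPM in a cotyledon library.

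Genes of metabolism and transport varied widely in their tissue levels. The cytochrome P450 gene MtrunA17_Chr1g0184461 had 10.9 and 10.6 CPM in R1P against 1.54 and 1.17 CPM in R1, but 69.1 to 177 CPM in cotyledons. R1 lay below C1 by -6.39 ± 0.34 on the log2 scale and R1P below C1P by -3.73 ± 0.29 (edgeR adjusted p = 8.7e-09 and 1.9e-07). The cyanohydrin beta-glucosyltransferase gene MtrunA17_Chr3g0118711, whose annotated activity makes cyanogenic glucosides, had 8.32 and 8.07 CPM in R1P against 0.534 and 0.443 CPM in R1, with 22.3 to 41.8 CPM in cotyledons. The values of both genes were not whole in any library.

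The sodium/calcium exchanger gene MtrunA17_Chr7g0254091 had 13.4 and 16.5 CPM in R1P against 1.01 and 1.46 CPM in R1, and 17.4 and 19.3 CPM in R5P against 6.12 and 7.05 CPM in R5. The CorA-like magnesium transporter gene MtrunA17_Chr8g0380621 had 88.5 and 82.7 CPM in R1P against 40.2 and 37.7 CPM in R1, and 137 to 211 CPM in cotyledons. Under RNA and ribosome, the ribosomal protein L19 gene MtrunA17_Chr3g0102051 had 114 and 91.7 CPM in R1P against 53.8 and 45.0 CPM in R1. Genes MtrunA17_Chr4g0045921 and MtrunA17_Chr3g0135941, both with an RNA recognition motif, had 57.0 to 123 CPM in treated radicles against 27.1 to 47.7 CPM in untreated ones.

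Values of some of the 110 genes rested on a single library. MtrunA17_Chr6g0461021, named here after its values were seen, had 546 and 176 CPM in R5P against 176 and 179 CPM in R5. MtrunA17_Chr3g0077401, a hypothetical protein, had 137 CPM in the first C1P replicate and 0 CPM in the second, against 88.6 and 89.5 CPM in C1. Its treated radicles held 219 to 418 CPM, against 102 to 180 CPM in untreated radicles.

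The comparison of tissues asked how the radicle level of the 150 genes stood to the cotyledon level at the same stage. Nothing in the sources ties a radicle library to a cotyledon library. The choice fixed that the radicle to cotyledon difference would be larger with PEG than without, so the shift between these comparisons is no finding. They also share libraries with the choice, which used the level of every group. The shares in these comparisons, beside those of all genes, are therefore a description. Each was tested on its own with edgeR over 25524 genes, and a call needed both an adjusted p below 0.05 and a log2 difference beyond 1 in either direction. All 150 genes entered the test.

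Without PEG, more of the genes were called lower than higher in radicles. In R1 against C1, 29 were called higher and 79 lower, or 52.7% of the 150, whereas 22.4% of all genes tested were higher and 23% lower. In R5 against C5, 32 were higher and 64 lower (42.7% of the 150), against 23.7% and 21.2% of all genes. Of the genes lower in R1 than C1, 60 were also lower in R5 than C5. Overlaps of calls, here and below, are given without those over all genes and are counts only. The median log2 differences of the 150 genes were -1.13 and -0.83, beside all-gene medians of -0.04 and 0.02.

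With PEG, more of them were higher in radicles. In R1P against C1P, 64 genes were called higher (42.7%) and 29 lower, against 17.8% higher and 19.8% lower over all genes. In R5P against C5P, 82 were called higher (54.7%) and 12 lower, against 20.2% and 19.9%. The median differences were 0.83 and 1.47. Of the 64 genes higher in R1P, 61 were also higher in R5P. Without the second C1P replicate, 62 genes were higher and 25 lower in R1P than in C1P.

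The patterns were split on cotyledon levels of these libraries, and the genes were chosen on values of all groups, so counts within them are a description. Of the 110 other genes, 75 were called lower in R1 than C1 and 5 higher, beside 23% and 22.4% of all genes, while R1P against C1P gave 26 higher and 29 lower, with a median log2 difference of 0.06. At 5 mm, 62 of the 110 were lower and 5 higher in R5 than C5, and 42 were higher and 12 lower in R5P than C5P. Of the 36 genes under 1 CPM in cotyledons, 35 were called higher in R1P than C1P and 36 in R5P than C5P, a direction that follows from how the pattern was defined.

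**Figure D4:**
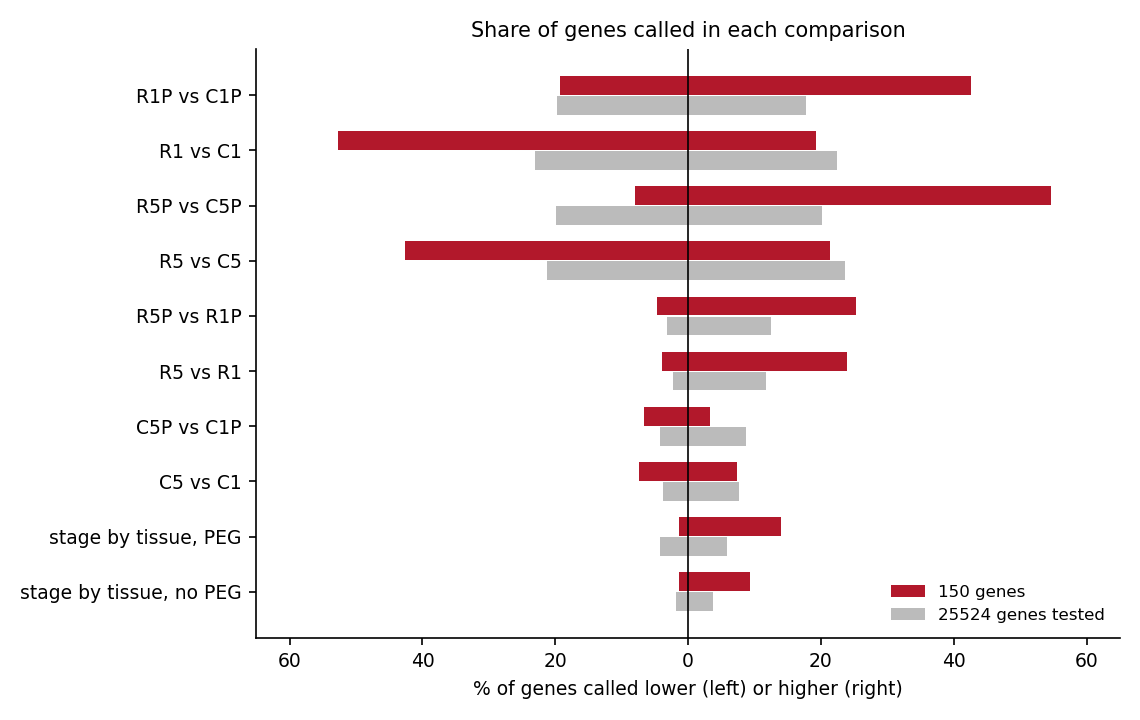
Share of the 150 genes (red) and of the 25524 genes tested (grey) that edgeR called higher (bars to the right) or lower (bars to the left) in each of 10 comparisons. In R1 against C1, 52.7% of the 150 genes were called lower, beside 23% of all genes. In R5P against C5P, 54.7% were called higher, beside 20.2%. All comparisons share libraries with the choice of the genes.

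The comparison of stages asked whether the 150 genes differed between radicles of 5 mm and 1 mm. Stage comparisons, here and below, share libraries with the choice of the genes. Their shares beside those of all genes are therefore a description. With PEG, 38 were called higher in R5P than in R1P (25.3% of the 150) and 7 lower, against 12.5% and 3.24% of all genes. Without PEG, R5 exceeded R1 in 36 called genes (24.0%) and was below it in 6, against 11.7% and 2.29%. In both states 24 genes were higher at 5 mm, and 3 were lower in both, counts given without the overlap over all genes. Leaving out the first R1P replicate left 25 genes higher in R5P, and without the first R5P or the second R1P replicate 3 genes were lower. Without the second R1 replicate, 3 were lower in R5.

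The largest stage difference in radicles was that of MtrunA17_Chr1g0177571, not in the annotation tables used here. It had 57.9 and 57.9 CPM in R5P against 1.70 and 1.17 CPM in R1P, and 14.3 and 15.01 CPM in R5 against 0.0876 and 0.172 CPM in R1. The log2 differences were 5.19 ± 0.24 with PEG and 6.73 ± 0.31 without (edgeR adjusted p = 1.1e-07 and 5.6e-08). It was higher at 5 mm in cotyledons too, with 22.7 and 24.4 CPM in C5P against 4.98 and 4.22 CPM in C1P, and 32.2 and 34.1 CPM in C5 against 4.78 and 5.13 CPM in C1. MtrunA17_Chr2g0324131 and MtrunA17_Chr1g0193421 were also higher at 5 mm in radicles, by 2.04 ± 0.38 and 2.56 ± 0.30 with PEG and by 3.19 ± 0.42 and 2.43 ± 0.34 without (edgeR adjusted p from 5.9e-05 to 0.0018).

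Between cotyledons of the 2 stages, fewer of the genes were called than between radicles. In C5P against C1P, 5 were called higher and 10 lower, against 8.68% and 4.16% of all genes, and in C5 against C1, 11 were higher and 11 lower, against 7.64% and 3.75%. The first shares were 3.33% and 6.67% of the 150, and the second 7.33% in each direction. These small counts moved with the libraries. Without the first C5P replicate 3 genes were higher and 4 lower in C5P, without the first C1P replicate 8 were higher, and without the second 3 were higher. In C5 against C1, 6 genes were higher without the first C5 or the first C1 replicate and 5 without the second C1 replicate, while 5, 6 and 7 were lower without the second C5, the first C1 and the second C1 replicate. Among the lower ones was the outer envelope membrane protein gene MtrunA17_Chr7g0259701, with 18.7 and 26.8 CPM in C5P against 32.6 and 82.6 CPM in C1P (log2 difference -1.73 ± 0.43, edgeR adjusted p = 0.015). Its replicates in C1P were far apart.

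Whether stage differed between tissues was tested as an interaction, added after the data were seen. It too used libraries on which the genes were chosen, so its shares beside those of all genes are a description. With PEG, the 5 mm to 1 mm difference was called larger in radicles than in cotyledons for 21 genes (14.0%) and smaller for 2, against 5.92% and 4.25% of all genes. Without PEG it was called larger for 14 (9.33%) and smaller for 2, against 3.69% and 1.76%. In both states 7 genes were larger, a count given without the overlap over all genes. MtrunA17_Chr2g0295141 had the largest difference with PEG, 4.52 ± 0.34 on the log2 scale (edgeR adjusted p = 2.1e-05), being higher in R5P than in R1P by 2.98 ± 0.25 and lower in C5P than in C1P by -1.54 ± 0.23. In the cytochrome P450 gene MtrunA17_Chr3g0101631 the radicle stages differed by 0.44 ± 0.30, which did not pass (edgeR adjusted p = 0.33), and C5P was below C1P by -2.36 ± 0.38 (adjusted p = 0.0017). It had 10.2 and 7.28 CPM in R5P against 6.02 and 5.75 CPM in R1P, and 0.400 and 0.301 CPM in C5P against 1.76 and 1.13 CPM in C1P (interaction 2.79 ± 0.48, adjusted p = 0.0033). The 2 genes in the other direction were the 9S-lipoxygenase, at -1.27 ± 0.34 (adjusted p = 0.029), and the receptor-like kinase MtrunA17_Chr4g0031561, at -1.96 ± 0.49 (adjusted p = 0.023). The count of genes larger in radicles with PEG was 12 without the first R5P or the first C5P replicate and 11 without either R1P replicate. The count of smaller ones was 5 without the first C1P replicate and 0 or 1 without any other treated library. Without PEG, 1 gene was smaller when any R5, R1 or C1 replicate was left out.

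**Figure D5:**
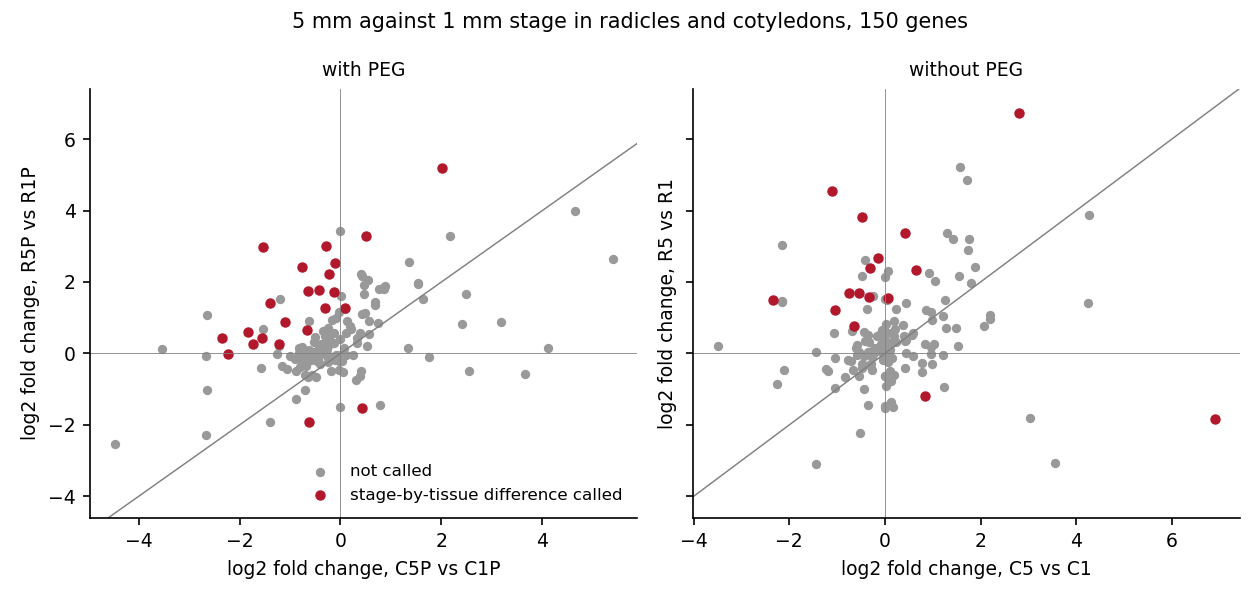
Log2 fold change of the 5 mm against the 1 mm stage for the 150 genes, in cotyledons (horizontal) and radicles (vertical), with PEG on the left and without on the right. Each point is a gene, red where edgeR called the difference between tissues, and the diagonal marks an equal change. With PEG 21 red points lie above the diagonal and 2 below.

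The study's list of genes in regions of more open chromatin in R1P, which came from ATAC-Seq on other libraries, held 13 of the 150 genes (8.67%). It held 2.52% of the 25406 nuclear genes tested, and 34.4% of the 524 genes that were higher with PEG by at least 1 on the same scale in both tissues at both stages. The 13 included the lipoxygenase, MtnsLTP20, the thaumatin, the AP2-EREBP factor, the adenylyltransferase and MtrunA17_Chr7g0243751, a putative protein with 59.5 and 48.6 CPM in R1P against 7.25 and 5.44 CPM in R1. Of the 150 genes, 14 were in the study's cluster of genes raised in R1P only, a number given without the share over all genes. The study formed it on these same radicle libraries, so their number is no independent evidence. Another of its clusters holds genes raised in both R1P and R5P, as the 150 were chosen to be. The study called that cluster potentially responsive to PEG and did not firmly link it to the return of desiccation tolerance. The 150 genes were not counted in it.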

How the data were processed

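RNA-Seq of radicles and cotyledons was read from 1 table of all 16 libraries. The authors quality-checked reads and mapped them to the *Medicago truncatula* Mtv5 transcriptome with Salmon version 1.2, and the table they deposited gives estimated counts per gene that were not adjusted to depth or transcript length. Of its columns, 0 were left unused. Library totals ranged from 22012976 to 23257652, so that 3 counts, taken as the floor, were 0.129 to 0.142 CPM. Floors cover counting error only.

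CPM for the choice of genes was the count over the sum of the 44316 nuclear identifiers. For tests, estimated counts were rounded and fitted in edgeR version 4.0.16 (R version 4.3.3) with TMM, filterByExpr and the quasi-likelihood test over all 16 libraries, with Benjamini-Hochberg adjustment over 25524 genes. The common biological coefficient of variation was 0.247. The 4 PEG comparisons chose the genes and were not tested. Between groups of 2 libraries, 0.333 is the smallest two-sided p of an exact permutation test, and p-values measure only the spread between libraries labelled biological replicates. On simulated counts for R5P against R1P over 24391 genes, 94 of 100 genes changed by 2 on the log2 scale and 100 of 100 changed by 3 were recovered, with 9 false calls. Only these 200 genes were changed, all with a mean over 5 CPM, and every other gene had the same mean in all groups. The simulation therefore does not give the recovery of less abundant genes, nor the false calls where many genes differ. Setting genes at the floor to their bound moved no median of the 150 genes by over 0.05. Replicates of every group differed by more than sampling noise.

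The members, gene lists and tests were chosen with earlier results of these data known. Named genes were the 12 highest of the ranking, up to 3 of each annotation class by radicle level with PEG, those with a symbol, up to 8 in the list of more open regions, the 2 highest and 2 lowest called in each tested comparison, the 5 highest by radicle CPM with PEG, and those at the edge of the ranking, 52 in all; others are marked where named. Annotations are from the study's supplementary tables, whose lists of more open regions and of cluster members were used as lists only; 0 identifiers matched the RefSeq table, so sequences and coordinates are not given. Alternatives were library totals or RLE in place of TMM, DESeq2 version 1.42.0, the table unfiltered, a block for the replicate number, fits to 8 libraries, each replicate left out, and for the choice of genes TMM, other pseudocounts, a minimum of 1 CPM and all identifiers. ATAC-Seq and ChIP-Seq files were not used here. Figures used matplotlib version 3.10.9.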

Additional observations from a re-analysis of the deposited data

Results flagged for a closer look

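The difference between stages itself differed between tissues for some of the 150 genes. With PEG, 23 genes had a 5 mm to 1 mm difference in radicles that edgeR called different from that in cotyledons, 21 larger and 2 smaller. Without PEG there were 16 such genes, 14 larger and 2 smaller. The smaller ones without PEG were MtrunA17_Chr4g0020881, at -2.03 ± 0.24 on the log2 scale (edgeR adjusted p = 4e-04), and MtrunA17_Chr8g0361681, a putative protein, named after its values were seen, with a mean under 1 CPM in every cotyledon group.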

How the results depend on the processing

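The choice of the genes moved with its settings. Of the 150, 94 were among the highest 150 with TMM-scaled CPM and 53 with a pseudocount of 5 CPM, while leaving out replicates (first, second, or the second of C1P) kept 88 to 126. On library totals the median PEG difference was 1.91 for R1P against R1 and -0.0927 for C1P against C1, and 10 genes were higher in C5P than in C1P. Leaving out single libraries gave 2.22 to 2.29 and 0.25 to 0.49 for those medians. In fits to 8 libraries, 10 genes were lower in R5 than R1, 1 was higher and 6 lower in C5P than C1P, 6 were higher and 6 lower in C5 than C1, and 1 had a smaller stage difference in radicles with PEG. DESeq2 gave 5 and no filter 4 genes with a smaller stage difference without PEG. Leaving out each replicate gave 25 to 31 genes higher and 3 to 6 lower in R5P than R1P, 3 to 5 lower in R5 than R1, 3 to 8 higher and 4 to 11 lower in C5P than C1P, and 5 to 13 higher and 5 to 11 lower in C5 than C1. It gave 11 to 26 larger and 0 to 5 smaller stage differences in radicles with PEG, and 1 to 3 smaller ones without. The cause was not tested. Other counts kept within 1.5 times the value reported. The choice without C1P replicate 2, the choice on all identifiers and both stage by tissue tests were added after seeing the data.

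With the replicate number as a block, 37 genes were higher in R5P than R1P and 79 lower in R1 than C1, and no count moved by over 1.5 times. Deviations of same-numbered replicates correlated between -0.68 and 0.40 over 28 pairs of groups, so the numbers were not taken to pair the samples. At 3 counts a library, levels under about 0.142 CPM were not resolved.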
